A study of Mus musculus with 19 samples.

Results

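Serpina1a, Serpina1b, Serpina1c, Serpina1d, Serpina1e, Serpina3k, Serpina3m and Serpina3n encode protease inhibitors that the mouse liver secretes into blood plasma. They were taken from the deposited expression table by gene symbol, and 8 of 8 were found among its 24537 genes. The counts of the 5 Serpina1 genes were also added together, because these genes are near-identical copies among which reads can be divided wrongly. RNA was sequenced from hepatocytes of 19 male wild-type mice of strain C57BL/6J, with 1 library per mouse. The labels give a comparison of age, between 10 young mice at 5 months and 9 old mice at 24 months, and name no treatment. The hepatocytes came from perfused liver, and the mice were killed on 2 days, the first with 5 young and 5 old mice and the second with 5 young and 4 old mice. Each mouse is named by its library number.

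Serpins offer a target protease an exposed stretch, the reactive loop, as bait. When the protease cuts the bond between the residues called P1 and P1′, the serpin refolds and traps it in an inactive complex, so the sequence of the loop sets which proteases are caught. Serpina1 encodes alpha-1-antitrypsin, an abundant hepatocyte product best known for inhibiting neutrophil elastase. Humans carry it as an unduplicated gene and mice as a cluster of copies. The Serpina3 genes are the mouse counterparts of alpha-1-antichymotrypsin: Serpina3k is also called contrapsin or kallikrein-binding protein, and Serpina3n is known as an acute-phase gene, a class that the liver induces during inflammation.

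The 8 genes lie on chromosome 12 (mm10). The Serpina1 copies are on the minus strand: Serpina1b at chr12:103728156-103738189, Serpina1d at chr12:103763587-103773633, Serpina1a at chr12:103853295-103863619, Serpina1c at chr12:103894926-103904950 and Serpina1e at chr12:103946932-103956897. The Serpina3 genes are on the plus strand: Serpina3k at chr12:104338486-104345739, Serpina3m at chr12:104387164-104394257 and Serpina3n at chr12:104406708-104414329. No other gene of the table overlaps them.

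The copies differ at a larger share of positions in the coding sequence of the reactive loop than in the rest, and it is shown for that reason (GENCODE M21, GRCm38, 5′ to 3′ of the coding strand). The stretch covers residues 363 to 389 of the 413-residue Serpina1 proteins, counted from the first methionine, and capitals mark the positions where the 5 copies are not all alike.
Serpina1a: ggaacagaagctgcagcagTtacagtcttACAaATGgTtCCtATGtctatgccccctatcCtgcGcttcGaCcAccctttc
Serpina1b: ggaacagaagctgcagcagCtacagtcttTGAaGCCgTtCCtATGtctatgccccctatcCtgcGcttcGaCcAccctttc
Serpina1c: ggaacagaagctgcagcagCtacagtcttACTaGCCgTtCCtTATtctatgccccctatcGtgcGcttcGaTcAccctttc
Serpina1d: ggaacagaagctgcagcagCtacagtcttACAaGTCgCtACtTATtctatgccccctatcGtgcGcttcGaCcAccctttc
Serpina1e: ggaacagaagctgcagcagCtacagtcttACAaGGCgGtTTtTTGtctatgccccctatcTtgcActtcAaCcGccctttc
The copies differed at 18 of these 81 positions (22.2%) and at 68 of the other 1158 coding positions (5.9%). The codon for P1, residue 377, was ATG for methionine in Serpina1a and Serpina1b, TAT for tyrosine in Serpina1c and Serpina1d, and TTG for leucine in Serpina1e. Serpina1e carried a base of its own at 24 coding positions, 8 of them in the loop, against 6 for Serpina1a, 7 for Serpina1c, 17 for Serpina1b and 19 for Serpina1d.

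The same stretch of the 3 Serpina3 genes ends at residue 396 of 418. Capitals here mark what lies between the 9 hinge codons and the 5 last codons, which encode the same residues in all 3.
Serpina3k: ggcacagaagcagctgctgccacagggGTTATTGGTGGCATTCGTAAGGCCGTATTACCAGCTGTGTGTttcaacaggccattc
Serpina3m: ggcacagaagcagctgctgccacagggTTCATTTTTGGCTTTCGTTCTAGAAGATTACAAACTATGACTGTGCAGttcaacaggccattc
Serpina3n: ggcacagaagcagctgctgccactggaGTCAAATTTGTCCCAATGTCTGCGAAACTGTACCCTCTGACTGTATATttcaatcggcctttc
Coding identity was 82.7% to 91.1% among the Serpina3 genes, 96.3% to 98.5% among the Serpina1 copies and 58.9% to 60.7% between the families. Read length is 100 bases per the labels, and of all windows of 100 bases along a transcript, the share also found in another gene was 61.0% for Serpina1a, 58.5% for Serpina1c, 29.3% for Serpina1d, 26.4% for Serpina1b and 18.2% for Serpina1e. It was 6.1% for Serpina3m, 4.9% for Serpina3k and 0.2% for Serpina3n. These shares take each read alone, whereas the libraries were paired-end and a pair is ambiguous only where both of its reads are. The values of the separate Serpina1 copies, those of Serpina1a and Serpina1c most, remain uncertain, since how reads with several matches were counted is not given in the sources used here.

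RefSeq promoters (GRCm38.p6, the 250 bases before the annotated start) were at hand for 6 of the 8 genes. Those of Serpina1a (the steadiest copy among young mice), Serpina1e (the most variable copy) and Serpina3n (the acute-phase member) are printed, at chr12:103863620-103863869 (minus strand), chr12:103956898-103957147 (minus strand) and chr12:104406458-104406707 (plus strand). Capitals mark matches to the motifs searched.
Serpina1a: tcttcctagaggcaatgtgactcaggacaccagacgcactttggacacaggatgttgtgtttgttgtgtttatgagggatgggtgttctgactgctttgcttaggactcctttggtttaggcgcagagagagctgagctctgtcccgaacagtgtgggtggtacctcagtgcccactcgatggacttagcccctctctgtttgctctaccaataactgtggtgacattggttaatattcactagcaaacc
Serpina1e: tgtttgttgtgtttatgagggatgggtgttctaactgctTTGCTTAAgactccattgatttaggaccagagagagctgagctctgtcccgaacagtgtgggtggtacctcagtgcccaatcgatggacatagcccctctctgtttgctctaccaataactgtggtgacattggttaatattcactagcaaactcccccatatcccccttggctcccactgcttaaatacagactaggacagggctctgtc
Serpina3n: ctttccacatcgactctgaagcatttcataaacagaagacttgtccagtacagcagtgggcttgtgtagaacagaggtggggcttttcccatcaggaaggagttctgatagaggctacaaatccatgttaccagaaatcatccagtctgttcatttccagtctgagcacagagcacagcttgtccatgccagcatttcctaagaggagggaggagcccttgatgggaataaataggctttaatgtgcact
Both strands were searched for TTCNNNGAA, the core of a STAT site, and for TTGCNNAA, a C/EBP-like element. TTGCNNAA was found in Serpina1b, Serpina1d and Serpina1e (9.6% of the 32851 mouse promoters hold it) and TTCNNNGAA in none of the 6 (7.0%). Aligned in pairs over 233 to 300 bases of the full promoter entries, the Serpina1 promoters were 91.4% to 97.6% identical, so these matches are not independent of each other.

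The libraries held 17381439 to 20287628.5 estimated counts over genes, which is 78.34% to 86.52% of the totals in the column names. The lowest count of any member in any library was 4616, of Serpina3n, and that of the Serpina1 sum 493910, so that counting error was small beside the spread between mice. Levels are given as CPM, the usual unit of counts scaled to library size, with TMM-scaled library totals. A gene passed the test at an adjusted p under 0.05 in edgeR's quasi-likelihood test of age with cull day as a covariate, over 12269 genes. All 8 members were among these. Of the 12269 genes 3785 passed, 30.9%, with 16.3% higher and 14.5% lower in old mice, and the log2 fold changes of all 12269 had a median of -0.003. Young mice 1184, 1186 and 1188, all of the first cull day, stood apart in acute-phase genes in earlier results of these data, and old mouse 1187 in genes of other cell types, so the results are given with and without them where that matters. Leaving out the 3 young mice shifts the young level of every gene that stood high or low in them, Serpina3n, Serpina3m and the acute-phase genes included, so a call or a direction gained by leaving them out is a description and not a test of age.

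Of the 8 members, 1 passed the test for age: Serpina3k, which fell to 0.547 times its young level. The Serpina1 copies and their sum were 0.818 to 0.904 times the young level in the fit, without passing, Serpina3m and Serpina3n did not pass, and 1 of 8 stands against 30.9% of all genes.

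The Serpina1 copies together made up several percent of the hepatocyte messenger RNA counted. Their sum took 3.55% to 4.27% of the counts in young mice and 2.49% to 4.03% in old mice, with means of 3.98% ± 0.265 (SD, n = 10) and 3.48% ± 0.569 (SD, n = 9). The ages overlapped, and the lowest values belonged to old mice. Averaged over the cull days the share was 0.475 percentage points smaller in old mice (difference -0.475, two-sided exact permutation test within cull days, 31752 relabellings, p = 0.0307). The difference was -0.743 points on the first day (exact p = 0.0317) and -0.206 on the second (exact p = 0.476). It rested on single mice for its call: the exact p was 0.0545 without young mouse 1182, 0.0542 without young 1184, 0.0576 without young 1235, 0.0612 without young 1237 and 0.0841 without old 1240. Without old 1187 it was 0.0483, for a difference of -0.369, and without young 1184, 1186 and 1188 it was 0.0998 for a difference of -0.474.

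In CPM the Serpina1 sum was 35470 at the lowest, 40730 at the median and 43610 at the highest of the 10 young mice. In the 9 old mice these values were 21540, 36520 and 41640. Old 1187 (21540), 1181 (28180) and 1240 (29800) lay below every young mouse and the other 6 old mice lay within the young range. The log2 fold change was -0.22 (edgeR, SE 0.112, p = 0.0604 before and 0.136 after adjustment), so the sum did not pass. The normal 95% interval ran from -0.44 to -0.00. With a score of 44 genes of other cell types as a covariate it was -0.11 (edgeR, SE 0.141 and adjusted p = 0.639). In bulk RNA fewer hepatocytes in a preparation and less RNA per hepatocyte cannot be told apart.

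Serpina1a, with methionine at P1, was the steadiest copy among young mice: 10170 to 11630 CPM in young mice, with a median of 11150, and 6458 to 10990 CPM in old mice, with a median of 9686. The young mice spanned only 1.14-fold. Old mouse 1187 was the lowest, with TMM scaling and also with library totals alone (7474 CPM). Its log2 fold change was -0.22 (edgeR, SE 0.0884 and adjusted p = 0.068). It passed with DESeq2's Wald test (adjusted p = 0.0142, a test that called 33.5% of all genes) and without old mouse 1185 (-0.25, edgeR adjusted p = 0.0432).

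Serpina1b, Serpina1c and Serpina1d followed the same course at lower levels. Serpina1b, the other copy with methionine at P1, had 6785 to 8560 CPM in young mice (median 7729) and 4726 to 7778 CPM in old mice (median 7203), a log2 fold change of -0.15 (edgeR, SE 0.0925 and adjusted p = 0.238). Serpina1c had 5198 to 6891 CPM (median 5784) and 3763 to 6261 CPM (median 4842), a log2 fold change of -0.20 (edgeR, SE 0.0901 and adjusted p = 0.102). It passed with DESeq2 alone among the settings tried (adjusted p = 0.04). Serpina1d had 3364 to 4441 CPM (median 4087) and 2127 to 4051 CPM (median 3438), a log2 fold change of -0.22 (edgeR, SE 0.106 and adjusted p = 0.123). In each of the 3 the ages overlapped and the lowest old mouse was 1187. With the score of other cell types as a covariate the log2 fold changes were 0.02 for Serpina1b, -0.04 for Serpina1c, -0.02 for Serpina1d and -0.10 for Serpina1a, and none passed.

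Serpina1e, with leucine at P1, was the copy that varied from mouse to mouse. Its level was 5865 to 15640 CPM in young mice (median 12890) and 2871 to 13210 CPM in old mice (median 11690). Over all 19 mice it spanned 5.45-fold with a coefficient of variation of 33.5%, against 12.1% to 15.8% for the other 4 copies and a median of 17.9% over the 1241 tested genes with a mean of at least 100 CPM. The low mice were old 1181 (2871 CPM), old 1187 (4468 CPM), young 1239 (5865 CPM) and old 1240 (6611 CPM), and both ages and both cull days are among them. In old 1181 the other 4 copies together stood at 25310 CPM, the median of the old mice. The log2 fold change of Serpina1e was -0.29 (edgeR, SE 0.256 and adjusted p = 0.41), with a 95% interval from -0.79 to 0.21. Leaving out 1 mouse at a time gave -0.38 to -0.16, the last without old 1181. Without young 1184, 1186 and 1188 it was -0.11, and none of these fits passed.

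**Figure D1:**
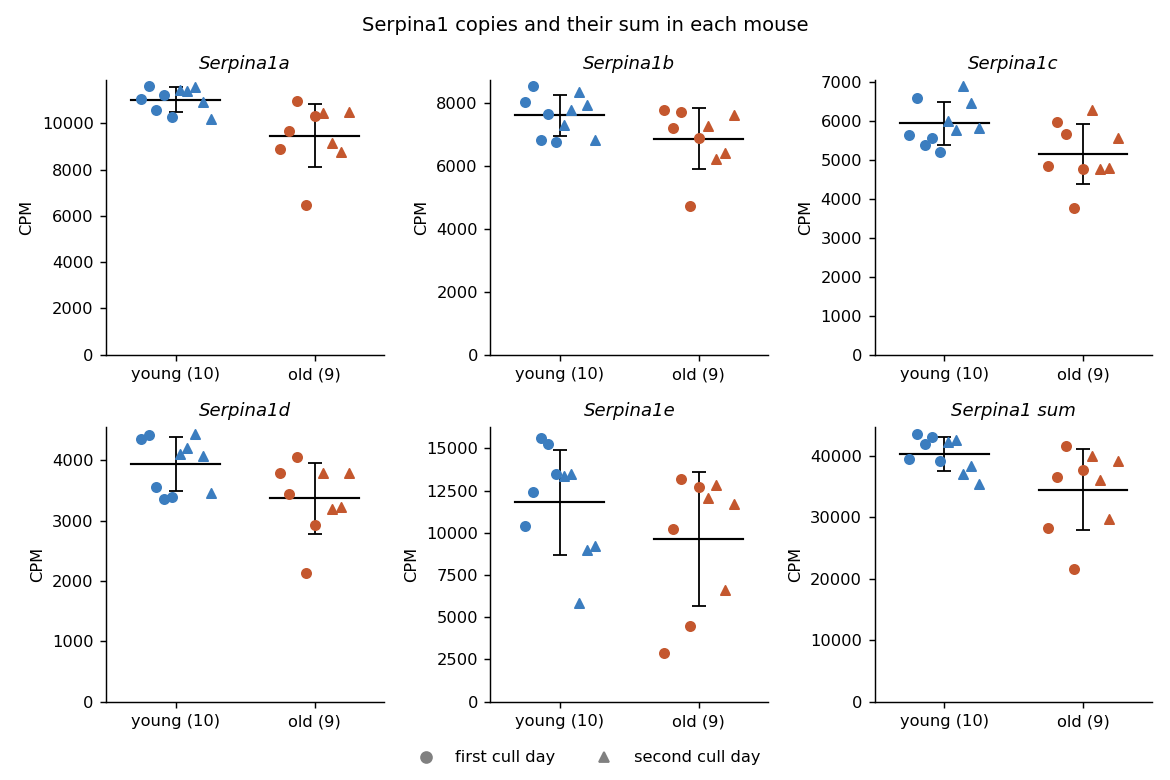
CPM of each Serpina1 copy and of their sum on a linear axis from 0, with 1 point per mouse (blue young, red old; circles for the first cull day, triangles for the second). Black lines are means and bars 1 SD over 10 young and 9 old mice; Serpina1e spreads from 2871 to 15640 CPM, while the young mice lie within 10170 to 11630 CPM for Serpina1a.

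The division of the Serpina1 counts among the copies shows the same contrast. Serpina1e supplied 10.2% to 37.2% of them, from 15.8% to 37.2% in the 10 young mice and from 10.2% to 35.5% in the 9 old mice. Serpina1a supplied 25.2% to 31.6%, Serpina1b 16.3% to 27.6%, Serpina1c 12.6% to 18.6% and Serpina1d 7.80% to 13.4%. In young 1184, 1186 and 1188 Serpina1e held 34.5% to 37.2%, where the remaining 7 young mice had 15.8% to 31.7%. With so much shared sequence the division is a description and was not tested.

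**Figure D2:**
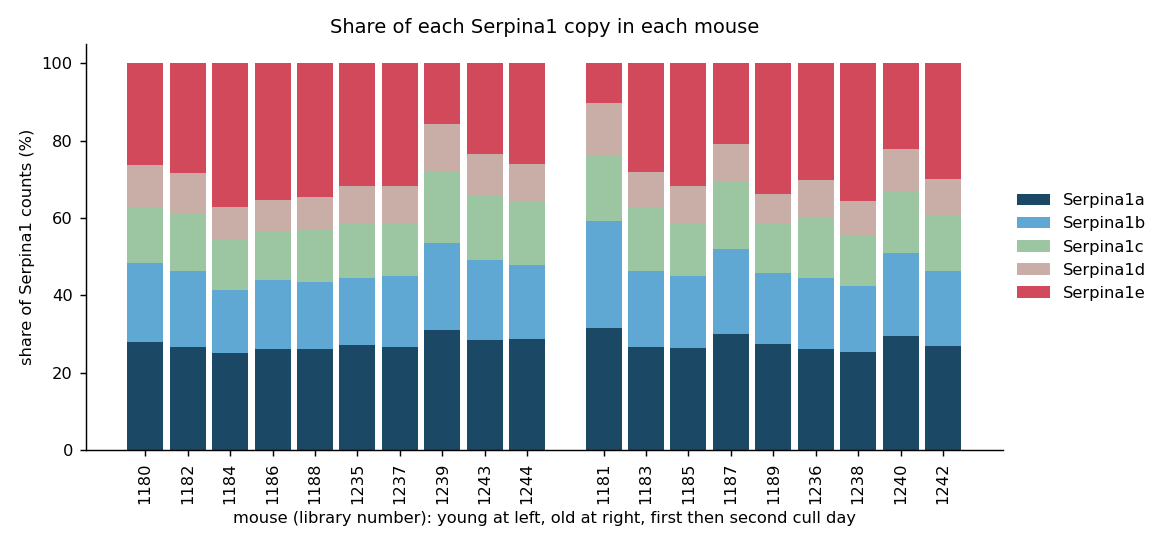
Share of each copy in the counts of the 5 Serpina1 genes (percent, stacked to 100), with 1 bar per mouse named by its library number, young at left and old at right. The share of Serpina1e runs from 10.2% in old mouse 1181 to 37.2% in young mouse 1184, and that of Serpina1a from 25.2% to 31.6%.

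Levels of different genes were compared per kilobase of the transcript length deposited with the counts. The order depends on these lengths. Serpina1a has 1717 bases and Serpina3k 1645, whereas their GENCODE transcripts have 1360 and 2057. Orders on the GENCODE lengths were not computed, so the relative places of these genes are uncertain. On the scale of CPM per kilobase Serpina1e was highest, at 7890 ± 2642 (SD, n = 19), followed by Serpina1a at 5995 ± 741.3, Serpina3k at 5752 ± 2050 and Serpina1b at 5124 ± 621.5. Serpina1e exceeded Serpina1a in 15 of 19 mice and Serpina1a exceeded Serpina1b in 18. On the deposited lengths the place of Serpina3k among them depended on age. Serpina1a exceeded it in 2 of 10 young and 9 of 9 old mice, and it exceeded Serpina1b in 9 of 10 young mice and 1 of 9 old mice. Serpina1c (3921 ± 536.7) and Serpina1d (2557 ± 405.3) came next, and each step down from Serpina1b to Serpina3n held in 19 of 19 mice. Serpina3n (315.0 ± 429.6) and Serpina3m (284.5 ± 93.42) were lowest and overlapped, with Serpina3n the higher in 5 of 19 mice. On the same lengths Serpina3k stood above Serpina1a in the mean of the young mice, 7313 ± 1312 against 6424 ± 308.6 CPM per kilobase (SD, n = 10). In the mean of the old mice it stood below, 4018 ± 1044 against 5518 ± 802.4 (SD, n = 9). Serpina1b had 5370 ± 456.4 in young and 4851 ± 689.7 in old mice on that scale.

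Serpina3k was lower in old mice on both cull days. The 10 young mice had 8637 CPM at the lowest, 12020 at the median and 15080 at the highest, and the 9 old mice 3857, 6845 and 8572. Every old mouse lay below every young mouse, an order found in 0.725% of the 12269 genes. The margin was narrow, from old 1238 at 8572 to young 1180 at 8637 CPM, and it was lost when counts were divided by the library totals alone, where old 1238 had 8850 and young 1180 had 8617 CPM. Within each cull day the ages were apart with TMM scaling, as in 1.65% of genes.

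The log2 fold change of Serpina3k was -0.87 (edgeR, SE 0.151 and adjusted p = 0.000539). It was -1.12 on the first cull day alone (edgeR adjusted p = 0.038, where 3.67% of genes passed) and -0.59 on the second (adjusted p = 0.00931, where 19.3% passed). Young 1184, 1186 and 1188 were the 3 highest mice, at 13760 to 15080 CPM, and the other 7 young mice had 8637 to 13090. Without those 3 mice the log2 fold change was -0.64 (edgeR, SE 0.137 and adjusted p = 0.00468), in a fit where 27.2% of 12354 genes passed. With the score of other cell types as a covariate it was -0.87 (edgeR, SE 0.187 and adjusted p = 0.00538), where 13.3% of genes passed.

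Serpina3n was high in a few mice and low in the rest. The young mice had 241.0 CPM at the lowest, 305.8 at the median and 4143 at the highest, and the old mice 244.4, 403.8 and 962.5. Young 1186 had 4143 CPM, young 1188 had 1169 and young 1184 had 1104, while the other 7 young mice lay between 241.0 and 350.8. Among the old mice 1189 (962.5 CPM) and 1187 (559.8 CPM), both of the first cull day, were highest. Over the 19 mice the coefficient of variation was 136%, against a median of 19.5% over tested genes.

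The age difference of Serpina3n had opposite signs on the cull days. Its log2 fold change was -0.57 over all mice (edgeR, SE 0.452 and adjusted p = 0.352) and -1.49 on the first day alone (adjusted p = 0.197). On the second day it was 0.43 (edgeR, SE 0.122 and adjusted p = 0.0283), from 280.7 ± 43.26 CPM in 5 young mice to 377.7 ± 44.88 in 4 old mice (SD). With the score of other cell types as a covariate it was -1.36 (edgeR, SE 0.471 and adjusted p = 0.0604). It was -0.05 (adjusted p = 0.918) without young 1186 and 0.54 (adjusted p = 0.0827) without young 1184, 1186 and 1188. The interaction of age with cull day was 1.92 on the log2 scale (SE 0.773, p = 0.0229 before and 0.708 after adjustment in edgeR), which does not pass. Of the 12269 genes, 0.0% passed the interaction test and 799 had an unadjusted p under 0.05.

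Serpina3m had both its lowest and its highest value in young mice. The young mice had 284.0 CPM at the lowest, 381.6 at the median and 959.5 at the highest, and the old mice 406.2, 470.4 and 621.2. The highest young mice were 1186 (959.5 CPM), 1184 (553.4 CPM) and 1188 (491.2 CPM), the same 3 as for Serpina3n. The log2 fold change was 0.18 over all mice (edgeR, SE 0.182 and adjusted p = 0.47), 0.36 without young 1186 (adjusted p = 0.0487) and 0.52 without the 3 mice (SE 0.122, adjusted p = 0.00769). On the second day alone, when old mice had 468.9 to 619.7 CPM and young mice 284.0 to 460.3, it was 0.59 (edgeR, SE 0.141 and adjusted p = 0.0131), and the ages did not overlap, as in 10.7% of genes. With the score of other cell types as a covariate the log2 fold change of Serpina3m was -0.00 (edgeR adjusted p = 0.991). The interaction with cull day was 0.76 (SE 0.33, p = 0.0336 before and 0.733 after adjustment in edgeR).

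**Figure D3:**
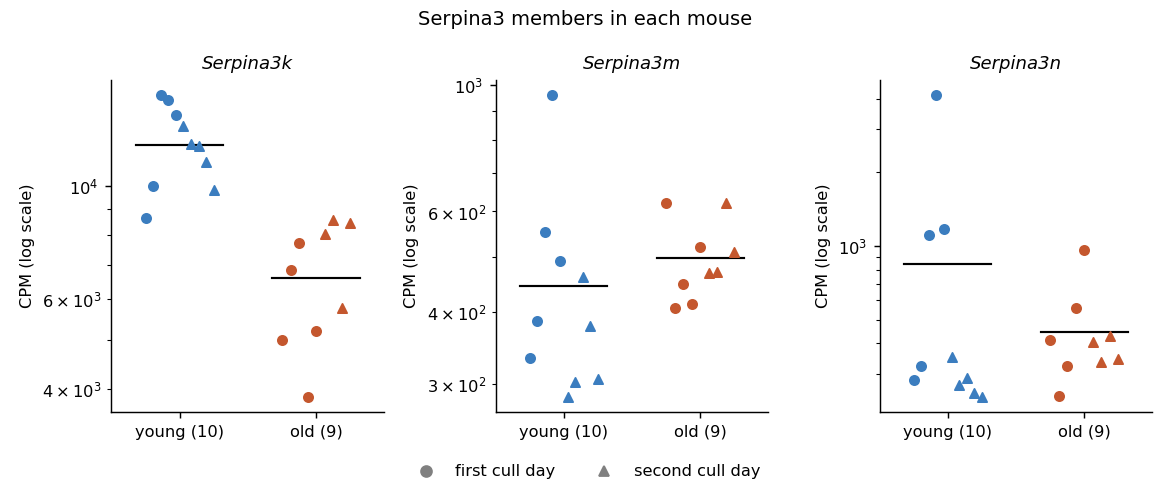
CPM of Serpina3k, Serpina3m and Serpina3n on log axes that do not start at 0, with 1 point per mouse (blue young, red old; circles for the first cull day, triangles for the second) and a black line at each mean. The 9 old mice lie at 3857 to 8572 CPM of Serpina3k, below the 10 young mice; in Serpina3n 3 young mice lie at 1104 to 4143 CPM above the other 7.

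**Figure D4:**
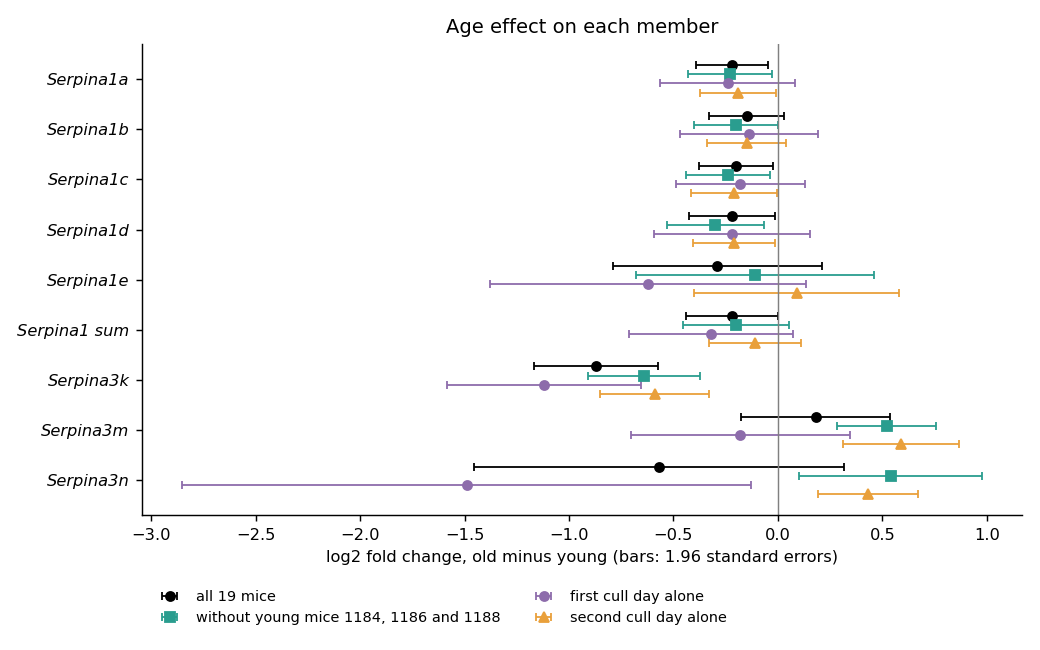
Log2 fold change of old over young mice for each member and the Serpina1 sum, with bars for the 95% interval, in 4 fits named in the legend. Serpina3k lies below 0 in all 4, between -1.12 and -0.59, while Serpina3n runs from -1.49 on the first cull day alone to 0.54 without 3 young mice.

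The 3 young mice with high Serpina3n were also high in most of the acute-phase genes named below. They had been set apart for such genes in earlier results of these data, so their gap to the other 7 is a description. Saa1, which encodes serum amyloid A, stood at 3190 to 8270 CPM in young 1184, 1186 and 1188 and at 15.8 to 33.9 CPM in the other 7 young mice, with 32.3 to 595.1 CPM in old mice. Lcn2, which encodes the siderophore-binding lipocalin 2, stood at 207 to 1120 CPM in the 3 mice and 0.545 to 1.87 CPM in the other 7 young mice. Haptoglobin (Hp) had 8290 to 13200 CPM against 2010 to 2300, Orm2 286 to 876 against 4.74 to 10.7 and Saa2 3660 to 10100 against 9.38 to 22.4 CPM. Socs3, the feedback inhibitor of interleukin 6 signalling, had 59.1 to 179 CPM against 1.12 to 32.5. Hamp, which encodes the iron-regulating hormone hepcidin, went the other way, with 199 to 471 CPM in the 3 mice, all below the other 7 young mice, which reached 884 CPM. The fold differences of Saa1 and Lcn2 between the 3 mice and the other young mice were far larger than those of Serpina3n, and Serpina1a, at 10270 to 11240 CPM in the 3 mice, lay within the range of the others.

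Of 27 acute-phase genes, 0 passed edgeR's age test with all mice, with a median log2 fold change of 0.19 beside -0.003 over all genes tested. In edgeR 3 had an unadjusted p under 0.05; with DESeq2 2 were called higher and 1 lower, and with limma 3 higher and 0 lower. Without young 1184, 1186 and 1188, which were set aside for their levels of such genes, the median log2 fold change was 1.39, with 3.07 for Saa1, 1.47 for Hp and 5.29 for Lcn2. The fit called 23 of the 27 higher, and since the choice of mice enters that count, nothing is read from it, also not against the 27.2% of all genes. The summed level of the 27 genes was 83800 to 132000 CPM in the 3 young mice, 29000 to 35600 in the remaining 7 young mice and 36000 to 113000 in old mice. Old 1189, the old mouse highest in Serpina3n, held the top of the old range, although its Saa1 was only 141.2 CPM.

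Genes whose log2 CPM followed a member over the 19 libraries were ranked by Pearson's r among 11124 tested genes with a mean of at least 1 CPM; the points share libraries, scaling and age, so r is a description. For Serpina3n the highest were Qsox1 (r = 0.95), Litaf (0.944), Mt2 (0.944), Spp1 (0.942) and Mt1 (0.941); Mt1 and Mt2 encode metallothioneins, and Spp1 osteopontin. Over the 16 mice without young 1184, 1186 and 1188, r was 0.943 for Mt2, 0.936 for Spp1 and 0.80 for Qsox1. For Serpina3k the highest were Mup10 (0.942), Mup18 (0.939), Mup8 (0.927), Mup11 (0.926) and Nudt7 (0.923). The Mup genes encode major urinary proteins, pheromone carriers of male liver, and are near-identical copies themselves; their log2 fold changes were -1.53, -2.53, -2.50 and -2.61, and each passed (edgeR adjusted p of 0.000231 at most). Nudt7, a peroxisomal coenzyme A hydrolase, had -0.92 (edgeR adjusted p = 0.00097). For the Serpina1 sum the highest were Susd4 (0.884), Hsd3b5 (0.849), Ttc39c (0.841), Eef2 (0.818) and Mup12 (0.817). Of these Hsd3b5 encodes a steroid dehydrogenase of male liver, and Eef2 a translation elongation factor.

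Serpina1e was ranked in the same way after its spread had been seen. The highest were complement C6 (r = 0.879), Lama3 (0.864), Susd4 (0.842), complement C8b (0.833) and Cdh1 (0.816), which encodes E-cadherin. The lowest was Cyp2a22, a cytochrome P450, at r = -0.909. Cyp2a22 itself is weakly expressed: old 1181, 1187 and young 1239, the 3 mice lowest in Serpina1e, had 8.70, 4.19 and 3.41 CPM, and the other 16 mice 0.547 to 2.46. Among the members, r was 0.831 to 0.926 between pairs of Serpina1a, Serpina1b, Serpina1c and Serpina1d and 0.227 to 0.609 between these and Serpina1e. Serpina3m and Serpina3n had r = 0.742, and 0.504 without the 3 young mice.

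**Figure D5:**
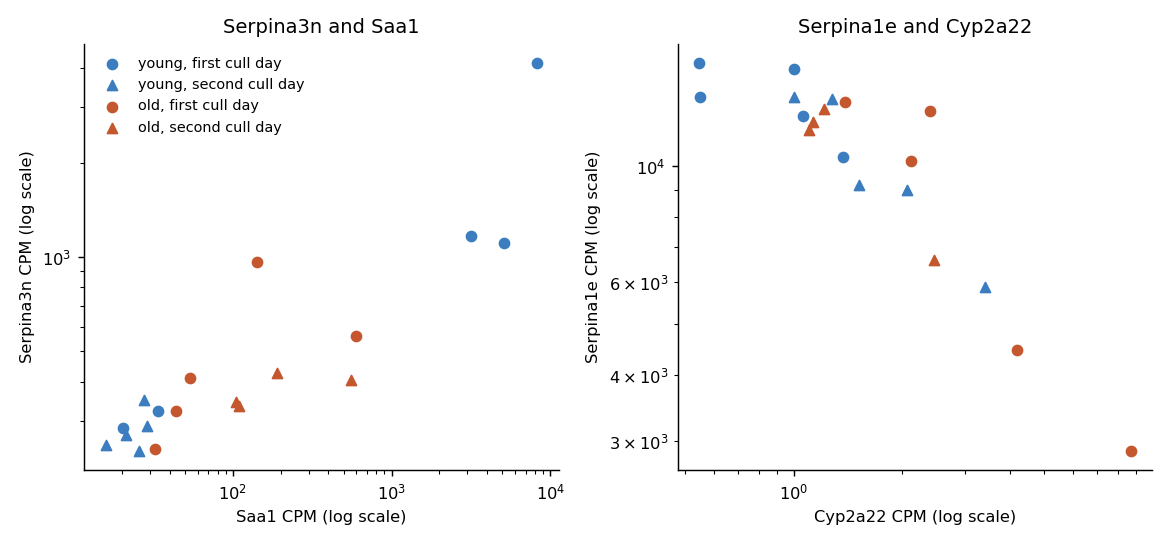
Left, Serpina3n against Saa1; right, Serpina1e against Cyp2a22; CPM on log axes, with 1 point per mouse coloured by age and shaped by cull day. Young 1184, 1186 and 1188 sit at the upper right of the left plot (Saa1 3185 to 8275 CPM), and the 3 mice lowest in Serpina1e have the highest Cyp2a22.

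Other serpins of clade A, the group that holds Serpina1 and Serpina3, were higher in old mice more often than lower. Of 16 such genes 9 were tested, 5 were higher and 1 lower in old mice, with a median log2 fold change of 0.44, beside 16.3% higher, 14.5% lower and a median of -0.003 over all genes. Serpina7, thyroxine-binding globulin, had 59.2 ± 22.2 CPM in the 10 young (SD) and 163 ± 69.7 CPM in the 9 old mice (SD), and rose by 1.46 on the log2 scale (edgeR, SE 0.252 and adjusted p = 0.000535). Serpina11 rose by 0.44 (adjusted p = 0.00287) and Serpina6, corticosteroid-binding globulin, by 0.89 (edgeR adjusted p = 0.0274; 0.47 and adjusted p = 0.222 without the 3 young mice). Serpina3f (1.53, edgeR adjusted p = 0.00633) and Serpina3g (1.67, adjusted p = 0.00699) overlap on the genome, so their values are uncertain and Serpina3g is named for that overlap. Both spread widely in the 9 old mice. Serpina3f had 1.61 to 18.9 CPM (5.81 ± 5.31, SD) and Serpina3g 2.7 to 40.9 CPM (11.6 ± 11.9, SD). Serpina10, the inhibitor of coagulation factor X with protein Z, had 0.02 (edgeR adjusted p = 0.964) with all mice and 0.64 without the 3 young mice, which had 590.0 to 669 CPM against 185 to 229 CPM in the other 7. Serpina9 fell by 1.36 (edgeR adjusted p = 0.00684) at a mean of 1.16 CPM in young mice.

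Of 13 tested serpins of other clades, 8 were higher and 0 lower, with a median of 0.43, beside 16.3% higher and 14.5% lower among all genes. Serpinb1a, an intracellular inhibitor of neutrophil proteases, rose by 1.89 (edgeR adjusted p = 0.00232), Serpinb8 by 1.10 (adjusted p = 0.00103) and Serpinf2, alpha-2-antiplasmin, by 0.35 (adjusted p = 0.00233). Serpinc1, antithrombin, had 0.11 (edgeR adjusted p = 0.305) at 2260 ± 236 CPM in young mice (SD, n = 10). Without old mouse 1187, when 24.5% of all genes passed in either direction, 4 of the 13 were higher and 0 lower. The median was then 0.46, and 10 of the 13 had an unadjusted p under 0.05 in edgeR both with and without that mouse. Markers of other liver cells were also higher in old mice, as given below, and their part in these values was not tested.

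Fewer target proteases than plasma inhibitors passed the filter on low counts. Of 26 listed serine proteases 11 were tested, 2 were higher and 0 lower in old mice, with a median of 0.10 and beside 16.3% higher among all genes: coagulation factor F10 (0.28, edgeR adjusted p = 0.00562) and the kallikrein Klk1b4 (0.74, adjusted p = 0.00134). Without young 1184, 1186 and 1188 the count was 4 higher and 0 lower, where 27.2% of all genes passed, with Prtn3 and Tmprss2 added. Both were high in the 3 mice, so their added calls are a description. Tmprss2, a membrane-bound protease, had 6.23 to 9.92 CPM in them and 1.85 to 3.52 CPM in the other 7 young mice. Prtn3, the neutrophil granule protease proteinase 3, had 12.1 to 29.7 CPM in the 3 mice and 0.0583 to 0.327 CPM in the other 7 young mice. Its log2 fold change for age was 1.28 with all mice (edgeR adjusted p = 0.385) and 5.15 without the 3. Elane, the neutrophil elastase gene, was not tested, with a mean of 0.170 ± 0.142 CPM over the 10 young (SD) and 0.368 ± 0.300 CPM over the 9 old mice (SD). Of 22 plasma inhibitors of other families 17 were tested, 8 were higher and 1 lower, with a median of 0.30, beside 16.3% higher, 14.5% lower and a median of -0.003 over all genes. They include murinoglobulin Mug2 (0.63, edgeR adjusted p = 0.000799), the tissue metalloprotease inhibitor Timp3 (0.96, adjusted p = 0.00125), Itih1 (0.33, adjusted p = 0.00216) and kininogen Kng2 (0.41, adjusted p = 0.00264), while Mug1 fell by 0.29 (adjusted p = 0.0431). Without old mouse 1187, when 24.5% of all genes passed, Mug1 no longer did, and 7 were higher and 0 lower.

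The share of regulators of the members that were lower in old mice was near the 14.5% of all genes, and none was higher, beside 16.3% of all genes. Of 18 genes of acute-phase signalling 0 were higher and 3 lower, with a median of -0.05: the leukaemia inhibitory factor receptor Lifr (-0.48, edgeR adjusted p = 0.00884), the liver transcription factor Creb3l3 (-0.26, adjusted p = 0.0188) and the glucocorticoid target Tsc22d3 (-0.43, adjusted p = 0.0323). Stat3, the transcription factor activated by interleukin 6, had 0.24 (edgeR adjusted p = 0.407) with all mice and 0.66 without the 3 young mice, which had 176 to 241 CPM against 64.5 to 110 CPM in the other 7. Cebpb had -0.41 (edgeR adjusted p = 0.159) with all mice and 0.01 without the 3 young mice, which had 144 to 245 CPM against 49.9 to 117 CPM in the other 7. Of 10 hepatocyte transcription factors 0 were higher and 2 lower, with a median of -0.16: Nr5a2 (-0.47, edgeR adjusted p = 0.0138) and Hnf4a (-0.30, adjusted p = 0.0268; -0.29 and adjusted p = 0.0726 without the 3 young mice). Of 9 tested genes of the growth hormone axis, which drives male-type liver expression, 0 passed with edgeR, DESeq2 or limma on all mice. In edgeR 1 had an unadjusted p under 0.05. The receptor gene Ghr had -0.23 (edgeR adjusted p = 0.116). The 3 young mice had 347 to 402 CPM of Ghr against 415 to 551 CPM in the other 7. Without them it had -0.35 (edgeR adjusted p = 0.0303), a call gained by leaving them out.

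Alpha-1-antitrypsin folds in the endoplasmic reticulum and leaves it with the help of cargo receptors. Of 28 genes of folding, disposal and export 1 was higher and 5 lower in old mice, with a median of -0.06, beside 16.3% higher and 14.5% lower among all genes. Edem3, which trims sugars of misfolded glycoproteins, fell by 0.48 (edgeR adjusted p = 0.00217), Lman1, a cargo receptor that carries alpha-1-antitrypsin, by 0.32 (adjusted p = 0.0104) and Herpud1, of the degradation complex, by 0.47 (adjusted p = 0.0149). Ddit3, a stress-induced transcription factor, rose by 0.50 (edgeR adjusted p = 0.0203). Without young 1184, 1186 and 1188, when 27.2% of all genes passed, 2 of the 28 were lower and 0 higher. Those that no longer passed kept their direction: Ddit3 had 0.48 (edgeR adjusted p = 0.0644), Lman1 -0.26 (adjusted p = 0.0597), the mannosidase gene Man1a -0.26 (adjusted p = 0.0896, after -0.30 with all mice) and Sec24d, of the vesicle coat, -0.29 (adjusted p = 0.241, after -0.45).

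Defining markers were read beside these results. The summed level of 14 hepatocyte markers was 120000 to 125000 CPM in young 1184, 1186 and 1188, the mice with high Serpina3n, 158000 to 179000 CPM in the other 7 young mice and 143000 to 225000 CPM in old mice, and 2 of the 14 were higher and 4 lower in old mice, beside 16.3% and 14.5% of all genes. Genes of other liver cells were present at low levels and higher in old mice: 12 of 14 Kupffer cell and macrophage markers (summed 156 to 731 CPM young, 93.0 to 3760 CPM old), 10 of 14 endothelial markers (206 to 384 and 221 to 709 CPM) and 13 of 14 stellate and fibroblast markers (62.5 to 176 and 177 to 647 CPM). Without old mouse 1187 these counts were 2, 8 and 10, where 24.5% of all genes passed in either direction, and the sums of the other 8 old mice reached 925, 595 and 318 CPM. Summed T and NK cell markers were 48.1 CPM, B and plasma cell markers 18.5 and neutrophil markers 20.3 CPM in old 1187. In the other 8 old mice they reached 3.90, 4.69 and 7.92 CPM and in young mice 3.21, 2.75 and 7.19 CPM, and 1 gene of each list was tested. Cholangiocyte markers summed to 5.55 to 171 CPM in young and 8.01 to 63.7 CPM in old mice. The defining neutrophil gene Ly6g and the cholangiocyte genes Cftr and Sctr had 3 counts or fewer in every library. Young 1184, 1186 and 1188 also lay above the other 7 young mice in the sums of Kupffer cell and macrophage markers, 405 to 731 against 156 to 337 CPM, of neutrophil markers, 1.32 to 7.19 against 0.220 to 0.785 CPM, and of cholangiocyte markers, 31.1 to 171 against 5.55 to 13.3 CPM. Of the last sum Spp1, which followed Serpina3n, supplied 24.5 to 151 CPM in the 3 mice. The part of these cell types in the Serpina3n and acute-phase values was not tested. The score of other cell types was highest in old 1187 (5.71), the mouse lowest in the Serpina1 sum and in Serpina3k, and its part in those values was not tested.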

How the data were processed

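Poly(A) RNA of each mouse was extracted with Trizol and chloroform and sequenced as a stranded paired-end library, per the labels' protocols. The authors deposited estimated counts per gene: HOMER's analyzeRepeats.pl counted exons of RefSeq transcripts for mm10, condensed transcripts to genes and left the values raw, per the file headers. STAR, HOMER, GRCm38 and mm10 are named in the submitters' processing notes, with no version. Of the values 29.2% were not whole, in steps of 0.5, so they were rounded; a test for whole counts had been planned. How reads with several matches and strand were counted is not given in the sources used here.

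Groups came from the labels. Genes were filtered with filterByExpr (minimum count 10) and tested with edgeR 4.0.16 (R 4.3.3; TMM scaling, quasi-likelihood, Benjamini-Hochberg adjustment, threshold 0.05), with age and cull day in the model; the Serpina1 sum replaced its 5 rows in a second fit. Separate mice were the replicates. The 95% intervals are normal intervals from the fitted SE and are narrower than the quasi-likelihood test implies. Likeness used log2 CPM with a prior count of 2. The fit was tested on simulated data. Alternatives were other scalings and filters, DESeq2 1.42.0, limma 3.58.1, models with and without cull day or a score of 44 genes of other cells, single cull days and mice left out.

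The members and lists were chosen with earlier results of these data known. Named were all members, up to 4 genes of each list with the smallest p among those past the threshold, genes set beforehand (1 is not reported here), and the 5 genes most like Serpina3n, Serpina3k and the Serpina1 sum; the genes like Serpina1e, Serpina3g, Mug1, Prtn3, Tmprss2, Man1a, Sec24d and Hamp were chosen after values were seen. Sequences came from GENCODE M21 and RefSeq; the promoters of Serpina3k and Serpina3m were not used here.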

Additional observations from a re-analysis of the deposited data

Results flagged for a closer look

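In 5 of 30 groups of values, 1 mouse lay further from its nearest neighbour, relative to the whole range, than Dixon's 95% critical value allows. Chance would mark about 1 group in 20 if the groups were independent and their values normal. These groups share mice and copies, so no excess over chance is read from the 5. Serpina3n was 4140 CPM in young mouse 1186, with the next young mouse at 1170 CPM and the lowest at 241 CPM. Serpina3m was 959 CPM in the same mouse, with the next at 553 CPM. Among old mice Serpina3n was 963 CPM in 1189, with the next at 560 CPM. Serpina1a was 6460 CPM in old mouse 1187, below the next at 8770 CPM. With library totals alone that mouse was still the lowest old mouse, at 7474 CPM, and the flag was not examined on that scale. The share of Serpina1b in the Serpina1 sum was 27.6% in old mouse 1181, with the next old mouse at 21.9%, and it is the mouse with the smallest share of Serpina1e.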

How the results depend on the processing

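Serpina3k kept its direction and its call in every alternative tried, with log2 fold changes of -0.92 to -0.80 when 1 mouse at a time was left out. The Serpina1 sum did not pass in any. Directions turned for Serpina1b with the score of other cell types (0.02), Serpina1e on the second cull day alone (0.09), Serpina3m with the score (-0.00) and on the first day alone (-0.18), and Serpina3n on the second day alone (0.43) and without young 1184, 1186 and 1188 (0.54); the cause was not tested. The number of genes called for age was 450 on the first cull day alone and 2388 on the second, fits with fewer mice, and 1632 with the score, against 3785; leaving out 1 mouse gave 3014 to 3949. The Serpina1 share of library counts lost its call on the second day alone (-0.206) and without the 3 young mice (-0.474), both with fewer mice. It also lost it in 5 of 19 fits that left out 1 mouse, which ranged from -0.557 to -0.369. The call held with the column-name totals as denominator (-0.453, exact permutation p = 0.00813) and with relabelling not kept within cull days (-0.492, exact permutation p = 0.0213). Dividing by library totals without the 50 most counted genes moved the median log2 fold change of all genes by over 0.1, to 0.126, and gave -0.74 for Serpina3k, -0.11 for the Serpina1 sum and 0.31 for Serpina3m. No paired analysis was possible because the library numbers are not shared between the ages. Near-identical Serpina1 copies limit the values of each copy, and reads dropped or assigned outside the 5 genes would limit their sum too, while 9 and 10 mice limit how small a difference can be seen.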
